A study of Mus musculus with 6 samples.

Results

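Rag1, Rag2 and Dntt were followed here in the mouse thymus with and without X-ray exposure. They were chosen by gene name, 1 row per gene identifier, which gave 3 of the 21954 genes of the mRNA table. The lncRNA table, which lists noncoding transcripts 1 by 1, held 1 transcript of these genes among its 53001, a noncoding form of Dntt, and listed none for Rag1 or Rag2. RAG1 and RAG2 together form the V(D)J recombinase, the enzyme that cuts antigen receptor gene segments at their recombination signals so that developing lymphocytes can join them. RAG1 carries the catalytic site and the main DNA-binding surfaces, while RAG2 is its essential partner and reads a histone mark of active chromatin. Dntt encodes TdT (terminal deoxynucleotidyl transferase), a DNA polymerase that adds nucleotides without a template at the joints and so widens receptor diversity. In the thymus these genes are used by immature T cells, chiefly cortical cells at the stage with CD4 as well as CD8 on the surface.

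All mice were wild-type C57BL animals aged 5 weeks. The control group of 3 received no radiation, and the irradiated group of 3 received 6 Gy of X-rays and was killed 24 h later. Polyadenylated RNA of whole thymus was sequenced, and levels are given as FPKM, the number of sequenced fragments per kilobase of transcript and per unit of sequencing depth. The labels do not tie each library to 1 animal, so the tests see only the spread between libraries, which may be technical. Depth estimated from the lowest values ranged over 21900000 to 23200000 fragments for controls, and irradiated libraries had 24400000 to 25600000.

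The thymus label was checked against marker genes. Markers of CD4 and CD8 double-positive thymocytes (6 genes, among them Cd4, Cd8a and Ccr9) summed to 979 to 1181 FPKM in control and 57.1 to 92.0 FPKM in irradiated libraries, and 6 of 6 fell in the limma fit described below. Macrophage markers summed to 128 to 192 and 870 to 957 FPKM, fibroblast markers to 52.8 to 70.2 and 404 to 453, and medullary epithelial markers to 33.4 to 40.8 and 165 to 459, and all 16 markers of these 3 lists rose. B cell markers, of the other lineage that uses the recombinase, summed to 12.9 to 15.2 and 5.53 to 20.2 FPKM. Irradiated replicate 2 stood apart with airway epithelial markers at 2880 FPKM against 3.11 to 44.3 in the other 5 libraries, and erythroid markers at 4757 FPKM against 0.968 to 767. Irradiated replicate 3 held the 767 FPKM, against 32.2 to 88.6 in controls. Skeletal muscle markers summed to 0.119 to 0.332 FPKM in controls and 1.91, 97.9 and 19.2 FPKM in irradiated replicates 1, 2 and 3. Cortical epithelial markers summed to 299 to 518 and 90.9 to 476 FPKM, and 2 of 5 rose. In the same fit 42.4% of all genes tested were higher and 20.9% lower. No defining marker of these lists was at 0 in all libraries. In whole tissue, fewer thymocytes and less RNA per thymocyte cannot be told apart, and the part of these cell types in the results was not tested.

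Rag1 and Rag2 lie side by side on chromosome 2 and are transcribed toward each other, while Dntt lies on chromosome 19. Their promoters are shown because the 3 genes moved together. Each stretch runs from 250 bases before to 50 bases after the start of transcription, 5′ to 3′ on the gene's strand, from RefSeq on GRCm38.p6. It covers chr2:101649483-101649782 on the minus strand for Rag1, chr2:101624462-101624761 on the plus strand for Rag2 and chr19:41029025-41029324 on the plus strand for Dntt, and the RefSeq start of Rag1 lies 31 bases before that in the deposited table. Capitals mark matches to the motifs named after the sequences.
Rag1: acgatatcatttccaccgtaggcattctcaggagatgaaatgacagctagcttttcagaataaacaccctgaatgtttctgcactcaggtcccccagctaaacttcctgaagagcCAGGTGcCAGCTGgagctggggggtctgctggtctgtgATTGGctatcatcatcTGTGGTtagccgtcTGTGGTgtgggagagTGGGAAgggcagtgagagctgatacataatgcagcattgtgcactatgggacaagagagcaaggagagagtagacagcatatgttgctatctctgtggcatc
Rag2: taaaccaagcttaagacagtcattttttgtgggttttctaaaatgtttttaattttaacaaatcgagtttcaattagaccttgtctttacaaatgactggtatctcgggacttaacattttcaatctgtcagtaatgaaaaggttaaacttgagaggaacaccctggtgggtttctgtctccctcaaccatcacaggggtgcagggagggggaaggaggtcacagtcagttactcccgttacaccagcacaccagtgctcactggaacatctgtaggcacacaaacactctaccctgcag
Dntt: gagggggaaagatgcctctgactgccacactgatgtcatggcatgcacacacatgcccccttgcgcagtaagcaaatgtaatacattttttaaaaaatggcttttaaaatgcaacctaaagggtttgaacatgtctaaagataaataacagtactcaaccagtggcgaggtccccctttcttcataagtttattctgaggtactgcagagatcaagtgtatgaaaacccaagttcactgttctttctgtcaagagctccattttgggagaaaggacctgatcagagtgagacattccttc

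Motifs of factors tied to lymphoid genes were searched on both strands, namely the E-box words CAGCTG and CAGGTG, the RUNX word TGTGGT, the CCAAT box, the Ikaros word TGGGAA and the TATA word TATAAA. No searched match overlapped another in these promoters. The Rag1 promoter held 2 E-box words whose first bases lie at -135 and -128 from the start, CCAAT on the opposite strand at -97, 2 RUNX words at -81 and -67, and an Ikaros word at -52. Of 32851 promoters of the same length, 32.9% held an E-box word, 16.8% the RUNX word, 37.4% CCAAT, 25.6% the Ikaros word and 13.6% the TATA word. Rag2 and Dntt held 0 matches to these letters in this window. GC content was 50.0% for Rag1, 43.0% for Rag2 and 42.3% for Dntt.

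Rag1 (ENSMUSG00000061311, chr2:101638282-101649501, minus strand, 1 transcript of 6608 bases) was the most abundant of the 3 in the control thymus. Control replicates 1, 2 and 3 held 511, 540 and 592 FPKM, and irradiated replicates 1, 2 and 3 held 1.97, 0.511 and 2.32 FPKM. The groups did not overlap, and irradiated replicate 2 was the lowest library. The mean went from 548 ± 40.9 to 1.60 ± 0.959 FPKM (SD, n = 3 each), 342-fold lower. On the log2(FPKM + 0.1) scale, where every log2 fold change below is irradiated minus control, Rag1 fell by 8.56 (SE 0.49, adjusted p = 5.42e-05, limma with Benjamini-Hochberg adjustment over 14001 genes). No other tested gene had a lower fitted log2 fold change, and its rank was 1 in all 15 alternative fits.

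Rag2 (ENSMUSG00000032864, chr2:101624718-101632529, plus strand, 2 transcripts, the longer of 3424 bases) stood well below Rag1 in the controls. The controls held 46.0, 51.3 and 48.7 FPKM, and the irradiated libraries 0.556, 0.0114 and 0.303 FPKM. The value in irradiated replicate 2 corresponds to about 1.001 fragments, against about 46.8 and 25.4 in irradiated replicates 1 and 3 and 3518 to 4079 in the controls, so counting error is large there. The mean went from 48.7 ± 2.66 to 0.290 ± 0.272 FPKM, 168-fold lower. Rag2 fell by 7.30 on the log2 scale (SE 0.59, limma adjusted p = 0.000119), rank 2 of 14001, and by 6.57 without irradiated replicate 2. With a pseudocount of 1 in place of 0.1 the log2 fold change was -5.29 and the rank was 6.

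Dntt (ENSMUSG00000025014, chr19:41029275-41059525, plus strand) was the second most abundant member in the controls and kept the largest share of its control level. The controls held 371, 419 and 396 FPKM, and the irradiated libraries 14.2, 2.0 and 5.27 FPKM. Again the groups did not overlap and irradiated replicate 2 was lowest, and its spread among irradiated libraries was wide. The mean went from 395 ± 23.8 to 7.17 ± 6.33 FPKM, 55.2-fold lower. Dntt fell by 6.18 (SE 0.61, limma adjusted p = 0.000226), rank 5 of 14001, and had -6.88 without irradiated replicate 1, the highest of the irradiated libraries. Its rank was 10 with a pseudocount of 0.01 and 2, ahead of Rag2, with a pseudocount of 1. The table repeats 1 value per gene on the lines of both coding transcripts, so the TdT isoforms cannot be told apart.

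**Figure D1:**
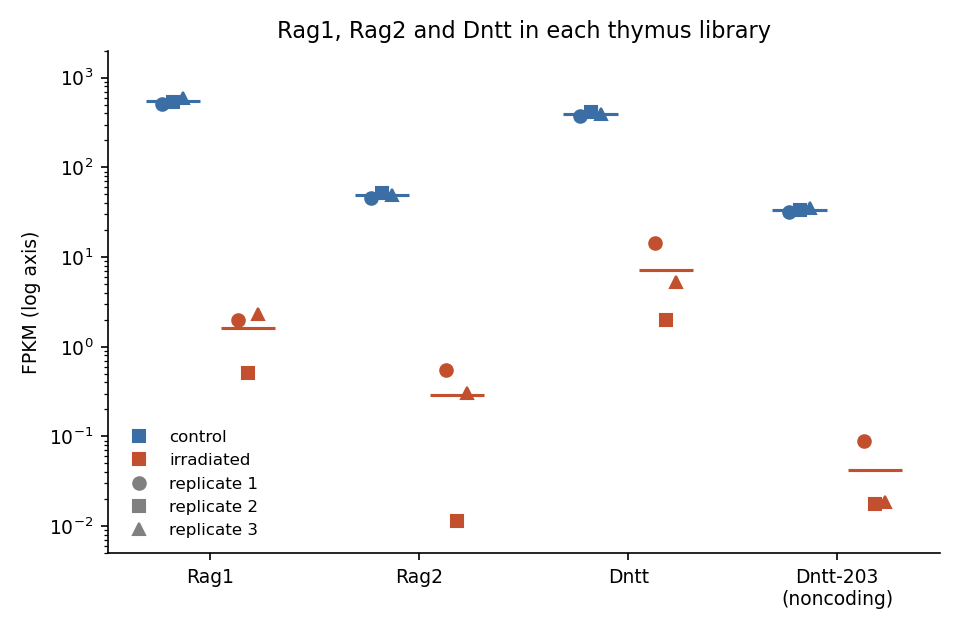
FPKM of Rag1, Rag2, Dntt and the noncoding transcript Dntt-203 in each library on a log axis, with controls in blue, irradiated libraries in orange, symbols for replicates 1 to 3 and horizontal lines at the group means. Each gene's irradiated libraries sit below all of its controls, and irradiated replicate 2 is the lowest for each, at 0.0114 FPKM for Rag2.

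All 3 members passed the filter of a mean of at least 0.5 FPKM, each through its control libraries, and all 3 were called lower. Of the 14001 tested genes 63.2% were called, 20.9% lower and 42.4% higher (2920 and 5933 genes, but 4403 lower and 3501 higher after quantile normalization). The groups did not overlap in 70.8% of tested genes, and in 24.7% every irradiated library lay below every control. The median log2 fold change over all genes was 0.40 on the deposited values and -0.07 after quantile normalization. Relative to that median the members stood at -8.96, -7.70 and -6.58 for Rag1, Rag2 and Dntt on the deposited values and at -9.17, -7.73 and -6.47 after quantile normalization. Without irradiated replicate 2, whose airway and erythroid markers stand apart, the log2 fold changes were -7.93, -6.57 and -5.49, each with a limma adjusted p of at most 0.000329. The authors' deposited table gives log2 fold changes of -8.65 for Rag1, -7.55 for Rag2 and -5.96 for Dntt, with adjusted p of 3.96e-44, 2.32e-18 and 2.7e-19.

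The order of the members changed between groups. In each of the 3 controls Rag1 was highest, Dntt next and Rag2 lowest. In each of the 3 irradiated libraries Dntt was highest, Rag1 next and Rag2 lowest, although the ranges of neighbours in that order overlapped across libraries, with Dntt at 2.0 to 14.2 FPKM, Rag1 at 0.511 to 2.32 and Rag2 at 0.0114 to 0.556. Irradiated replicates 1, 2 and 3 held 0.360%, 0.0932% and 0.423% of the control mean of Rag1 and 3.60%, 0.506% and 1.33% of that of Dntt. For Rag2 the shares were 1.14%, 0.0235% and 0.623%. Replicate 1 thus kept the most Dntt and Rag2 but not the most Rag1. In replicate 2, where Rag2 rests on about 1.001 fragments, the share of Rag2 was below that of Rag1.

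Ratios within a library compare how far the genes fell. For Dntt to Rag1 the log2 ratios of the controls were -0.46, -0.37 and -0.58 and those of the irradiated libraries 2.79, 1.78 and 1.15, a difference of 2.38. Rag1 to Rag2 stood at 3.47, 3.39 and 3.60 in control and at 1.66, 2.45 and 2.58 in irradiated libraries, a difference of -1.26. Controls had log2 ratios of Dntt to Rag2 of 3.01, 3.03 and 3.02, the narrowest spread of the 3 ratios, and irradiated libraries had 4.45, 4.24 and 3.73, a difference of 1.12. With the pseudocount of 0.1 the groups did not overlap in any of these ratios. The exact two-sided permutation test gave p = 0.1 for each, the smallest possible with 3 against 3. The Benjamini-Hochberg adjusted value was 0.1 as well. The Dntt to Rag1 difference ranged from 1.89 to 2.76 over the alternatives. The Rag1 to Rag2 difference was -0.39 (exact permutation p = 0.7) with a pseudocount of 0.01, where the groups overlapped. Irradiated replicate 2 kept 0.0235% of the control mean of Rag2 and 0.0932% of that of Rag1, so Rag2 fell further there. The Dntt to Rag2 difference turned to -0.62 (exact permutation p = 0.4) with a pseudocount of 1.

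The members were then set beside 13 other genes of double-positive thymocytes. Of these 12 fell and 0 rose, beside 20.9% lower and 42.4% higher over all genes tested. Their median log2 fold change was -3.44 beside 0.40 for all genes. Arpp21, which encodes an RNA-binding protein abundant in these cells, went from 263 ± 23.6 to 5.48 ± 5.57 FPKM (-6.05, limma adjusted p = 0.000294). Ccr9, the chemokine receptor that guides thymocytes, went from 114 ± 7.13 to 3.03 ± 0.893 FPKM (-5.23). Cd8a fell by 4.21 and Cd4 by 2.12. Cd1d1, the presenting molecule for NKT cells, had -0.46 (limma adjusted p = 0.135) and did not pass the test, though it did without irradiated replicate 2 (-0.69, limma adjusted p = 0.0226) and after median-ratio scaling (-0.92, limma adjusted p = 0.0101). None of the 13 had a fitted log2 fold change below that of Dntt.

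Within each library the members were also compared with the mean log2 level of those 13 genes. Rag1 minus that mean was 2.34, 2.31 and 2.26 in controls and -2.63, -3.61 and -1.79 in irradiated libraries, a difference of -4.98. Rag2 differed by -3.73 and Dntt by -2.60, each without overlap of the groups and each with p = 0.1 in the exact two-sided permutation test, again the smallest possible. All 3 members therefore lost more than the average gene of this list in each irradiated library. With a pseudocount of 1 the Rag2 difference was -1.87.

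**Figure D2:**
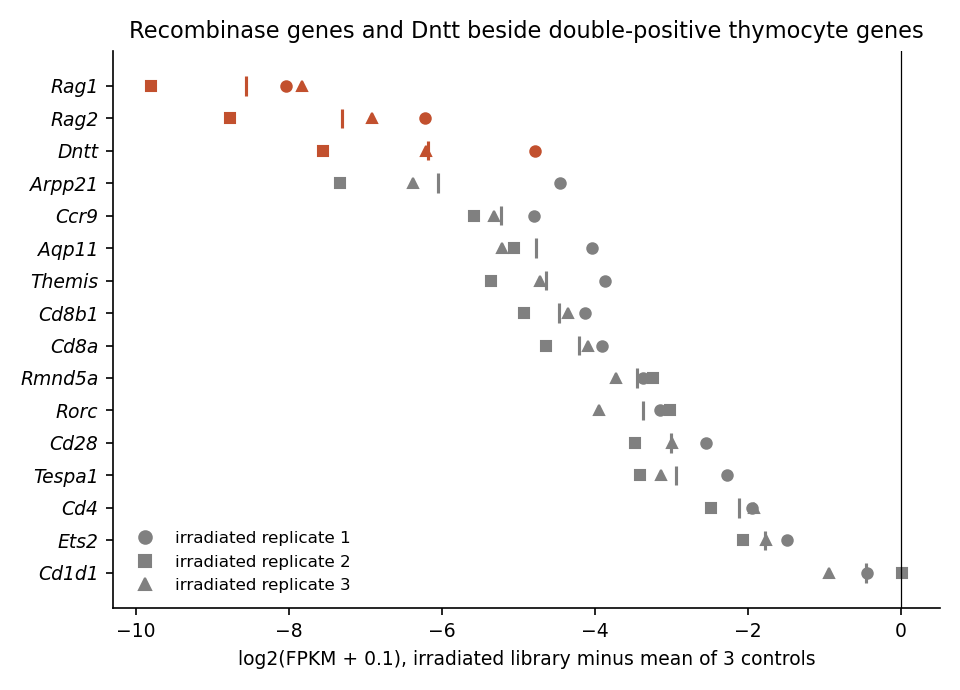
Change in log2(FPKM + 0.1) of each irradiated library from the mean of the 3 controls (x axis) for Rag1, Rag2 and Dntt in orange and 13 genes of double-positive thymocytes in grey, with symbols for the replicates and a tick at the mean. Rag1 has the lowest mean at -8.56 and Cd1d1 lies nearest to 0 at -0.46.

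Pre-TCR and CD3 chains were read as a separate list, since the pre-TCR is made once a beta chain has been joined. They are not particular to double-positive cells, and Ptcra also counts among the early thymocyte genes below. All 5 measured members fell, beside 20.9% of all genes tested, with a median of -2.22. Ptcra, the pre-TCR alpha chain, went from 10.6 ± 1.53 to 0.228 ± 0.208 FPKM (-5.20, limma adjusted p = 0.000126). Cd247, Cd3d, Cd3g and Cd3e had -2.79, -2.22, -2.04 and -1.82. The constant regions of the receptor genes themselves were sought by gene symbol among the mRNA genes and not found, so they could not be analysed.

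The gene most like each member over the 6 libraries was sought among 8005 tested genes with a control mean of at least 5 FPKM. Likeness was the root mean square difference in log2(FPKM + 0.1) after the control mean was taken off, so small values mean changes of like size in each library. For Rag1 the nearest were Rag2 (0.935), Tdrd5 (1.61), Tctex1d1 (1.68), Dntt (1.75), Arpp21 (1.88) and Hist1h2an (2.15). For Rag2 they were Dntt (0.821), Tdrd5 (0.871), Rag1 (0.935), Arpp21 (0.959), Tctex1d1 (0.970) and Hist1h2an (1.23). For Dntt they were Arpp21 (0.198), Hist1h2an (0.476), Tdrd5 (0.644), Tctex1d1 (0.723), Hist1h3g (0.786) and Phxr2 (0.796), with Rag2 at place 7 and Rag1 at place 77. Irradiated replicates 1, 2 and 3 held 0.0459, 0 and 0.0576 FPKM of Tctex1d1 and 0.185, 0 and 0.0353 FPKM of Phxr2. Most of these values lie under the pseudocount of 0.1, which bears on the distances of both genes. Rag2 in irradiated replicate 2, at 0.0114 FPKM, lies under it too, which bears on the distances of Rag2, also those to Rag1 and Dntt. Arpp21 followed Dntt closely in each irradiated library, with 11.9, 1.53 and 3.06 FPKM against 14.2, 2.0 and 5.27 FPKM. Tdrd5, a Tudor domain gene best known from germ cells, went from 27.2 ± 1.85 to 0.235 ± 0.0756 FPKM and varied less among the irradiated libraries. Values of the histone genes are uncertain, since it is not known how reads that match several near-identical copies were assigned.

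The noncoding transcript of Dntt, Dntt-203 (ENSMUST00000237959, chr19:41029385-41043965, plus strand), has 7 exons and 1090 bases and is typed as a processed transcript in GENCODE M21. It shares 6 exons and 928 bases with the coding transcript Dntt-201. The remaining 162 bases are its last exon, chr19:41043804-41043965 on GRCm38, which overlaps 0 exons of the coding transcripts. That exon is shown because it is the only sequence that sets the noncoding form apart, with capitals for its 1 match to the polyadenylation word AATAAA.
Dntt-203 exon 7: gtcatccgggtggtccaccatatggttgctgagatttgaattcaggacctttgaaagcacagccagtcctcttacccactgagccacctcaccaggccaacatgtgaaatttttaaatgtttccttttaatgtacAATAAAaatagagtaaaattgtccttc

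Control levels of Dntt-203 were 31.9, 33.4 and 35.0 FPKM, and irradiated levels were 0.0901, 0.0179 and 0.0185 FPKM. The groups did not overlap, as for 30.0% of transcripts tested in that table in this direction. The mean went from 33.4 ± 1.57 to 0.0422 ± 0.0415 FPKM. In irradiated replicates 2 and 3 the values lie under what 1 whole fragment is worth (0.0391 and 0.0409 FPKM in 1 kb), so the pseudocount largely sets the fitted log2 fold change, and no fold of the means is given. Most of the transcript is sequence shared with Dntt-201, so how the authors' software divided fragments between the forms bears on these values. Dntt-203 fell by 7.92 (SE 0.27, limma adjusted p = 5.9e-05 over 30613 transcripts), and of those transcripts 24.7% were called, 15.6% lower and 9.15% higher. The log2 fold change of Dntt-203 ranged from -9.60 to -5.05 over the pseudocounts and other alternatives, and the authors' deposited table gives -9.46 (adjusted p = 8.33e-15).

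Around the Rag locus, B230118H07Rik overlaps both members. It runs over chr2:101560781-101649532 on the minus strand, starts 31 bases before Rag1 and spans Rag2. Its controls held 38.9, 45.7 and 51.0 FPKM against 1.93, 3.51 and 2.92 FPKM in the irradiated libraries, and it fell by 4.00 (SE 0.23, limma adjusted p = 5.75e-05). Its 6.17% of control was above the 0.292% of Rag1 and the 0.596% of Rag2. In 3 of its transcripts the first exon shares 80 bases with Rag1 exon 1 on the same strand (chr2:101649422-101649501), and 1 of them crosses 208 bases of Rag2 exon 3 on the opposite strand (chr2:101630341-101630548). Strand use in counting is not given in the sources used here, so reads of these stretches cannot be told apart.

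Of 4 noncoding forms of the same neighbour, 2 fell, beside 15.6% lower and 9.15% higher over all noncoding transcripts tested. B230118H07Rik-212 (ENSMUST00000177171), a retained intron that starts 31 bases before Rag1, stood at 13.7, 8.38 and 14.6 FPKM in the controls and was listed at 0 in all 3 irradiated libraries (limma adjusted p = 9.25e-05). B230118H07Rik-205 (ENSMUST00000132640) stood at 0.225, 1.40 and 0.901 FPKM in the controls and was also listed at 0 in the irradiated libraries (limma adjusted p = 0.0136, and 0.0558 without control replicate 3). The forms ENSMUST00000177007 and ENSMUST00000138903 did not pass the test, with log2 fold changes of -1.55 and -0.50.

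Other genes of the neighbourhood moved less or the other way. Traf6, a ubiquitin ligase of innate signalling whose start lies 28939 bases from that of Rag1, went from 18.8 ± 1.20 to 13.5 ± 0.525 FPKM (-0.48, limma adjusted p = 0.0116, and 0.0522 without control replicate 3). Farther out on the same chromosome, Ldlrad3 fell by 1.15, Trim44 had -0.04 (limma adjusted p = 0.778, but -0.51 and 0.0201 after median-ratio scaling), and Prr5l and Commd9 rose with log2 fold changes of 2.55 and 1.93. The 6 measured neighbours of the Rag genes had 3 lower, 2 higher and 1 without a call, with a median of -0.26. Over all genes tested 20.9% were lower and 42.4% higher, with a median of 0.40.

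Beside Dntt, Blnk, the B cell linker adaptor, starts 34740 bases away on the minus strand. Controls held 2.04, 1.79 and 2.78 FPKM of it and irradiated libraries 5.74, 11.5 and 10.1 FPKM, and it rose by a log2 fold change of 1.96 (limma adjusted p = 0.00137). Pik3ap1, an adaptor for PI3K in B and myeloid cells, also rose (2.98), and Tm9sf3 had -0.09 (limma adjusted p = 0.577, but -0.56 and 0.0182 after median-ratio scaling). Between Blnk and Dntt lies a lncRNA locus listed without an Ensembl identifier, with transcripts on the minus strand. Its transcript TCONS_00075293 (chr19:40995615-41011691) had 1.81, 2.25 and 2.94 FPKM in control and 0, 0.0296 and 0 FPKM in irradiated libraries (log2 fold change -4.45, limma adjusted p = 0.00068). Its transcript TCONS_00075294 (chr19:40995615-41014761) had 1.69, 2.73 and 3.65 FPKM in control and 0.269, 0.00312 and 0.0484 FPKM in irradiated libraries (-3.91, limma adjusted p = 0.00466). The transcripts share most of their sequence, so their levels depend on how the authors' software divided fragments.

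**Figure D3:**
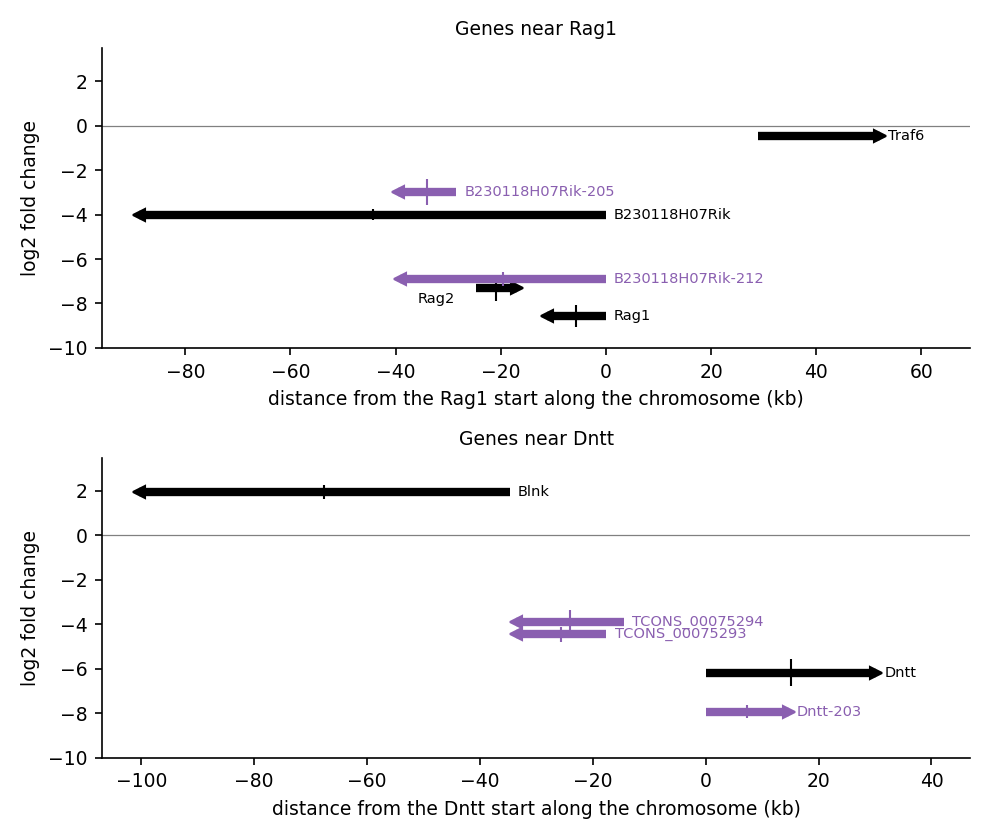
Log2 fold change, irradiated minus control (y axis), of tested genes (black) and called noncoding transcripts (purple) with a start within 100 kb of Rag1 or Dntt, drawn along their distance from that start (x axis, kb), with arrowheads for the direction of transcription and thin vertical lines for ± 1 SE. Rag1 lies at -8.56, Rag2 at -7.30 and the B230118H07Rik gene at -4.00 while Traf6 lies at -0.48, and Blnk lies at 1.96 beside Dntt at -6.18.

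The proteins that act with the recombinase and after it were read from a list of 19 genes of V(D)J cleavage and joining. Of these 13 fell, 2 rose and 4 did not pass the test, beside 20.9% lower and 42.4% higher over all genes tested. The median was -0.66 against 0.40 over all genes. Hmgb1 and Hmgb2, DNA-bending proteins that help RAG bind its signals, went from 69.0 ± 13.3 to 14.9 ± 3.38 FPKM (-2.21, limma adjusted p = 0.0002) and from 90.8 ± 12.2 to 9.62 ± 6.01 FPKM (-3.38, limma adjusted p = 0.000368). Dclre1c, which encodes the hairpin-opening nuclease Artemis, and Prkdc, which encodes the kinase DNA-PKcs that activates it, had -0.74 and -0.66. The ligase Lig4 fell by 3.37, its partner Xrcc4 by 1.33 and the Ku subunit Xrcc6 by 2.77, whereas the other Ku subunit Xrcc5 rose with 1.01 (limma adjusted p = 0.0047, and 0.0818 after median-ratio scaling). H2afx, the histone variant marked at breaks, fell by 3.54, with 215 ± 26.8 FPKM in the controls and 21.7 ± 16.1 after irradiation. Nhej1, Polm, Trp53bp1 and Nbn had -0.36, 0.23, 0.30 and 0.21 without passing the test, and Polm, Trp53bp1 and Nbn turned negative under at least 1 other scaling. Nhej1 passed after quantile normalization (-1.39, limma adjusted p = 0.00273). Every one of these 19 genes had a log2 fold change above that of Dntt.

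Both RAG proteins are removed by ubiquitin ligases, RAG2 through SKP2 as cells enter S phase and RAG1 through DCAF1. Of 8 measured genes of this turnover list 5 fell, 1 rose and 2 did not pass the test, with a median of -0.98. Among all genes tested 20.9% were lower and 42.4% higher. On the RAG2 side Ccna2 and Cdk2, the cyclin and kinase that mark RAG2 for removal, fell by 3.45 and 1.48, and Skp2 and its cofactor Cks1b by 1.54 and 1.56. On the RAG1 side Dcaf1 fell by 0.49 while its scaffold Cul4a had 0.44 (limma adjusted p = 0.0363), a rise that was lost on leaving out control replicate 1 or 2 or irradiated replicate 2 or 3 and turned to -0.03 after median-ratio scaling. Ddb1 and Rbx1 had 0.32 and -0.23 (limma adjusted p = 0.141 and 0.193), and Ddb1 passed without irradiated replicate 1 (0.45, limma adjusted p = 0.019). Rbx1 passed as lower after median-ratio scaling (-0.70, limma adjusted p = 0.00559).

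TdT belongs to the family X polymerases, whose other members also fill DNA ends. Poll, the gap-filling polymerase lambda, went from 1.63 ± 0.151 to 4.87 ± 0.810 FPKM and rose with 1.52 (limma adjusted p = 0.000821, and 0.0565 after quantile normalization). Polm, the polymerase most like TdT in sequence, was at 6.10 ± 1.15 and 7.11 ± 0.942 FPKM and did not pass the test. Polb, of base excision repair, had -0.48 (limma adjusted p = 0.0289, and above 0.05 on leaving out control replicate 1 or 2 or irradiated replicate 2). Pcna, the replication clamp that binds TdT, fell by 2.30, and the TdT-interacting factor Dnttip2 fell by 0.62, while Dnttip1 had 0.08 (limma adjusted p = 0.629) and was negative under each of the 3 other scalings, passing as lower after median-ratio scaling (-0.39, limma adjusted p = 0.0318). Of these 6 genes 3 fell and 1 rose, with a median of -0.20, beside 20.9% lower and 42.4% higher over all genes tested.

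Of 32 tested transcription factors and chromatin proteins tied to Rag or Dntt expression, 22 fell and 6 rose, with a median of -1.04. The shares over all genes tested were 20.9% lower and 42.4% higher. Satb1, a chromatin organiser of thymocytes that acts on the Rag locus, went from 729 ± 51.2 to 48.0 ± 18.4 FPKM (-4.00, limma adjusted p = 0.000104). Myb, needed at the double-positive stage, had -4.38, Gfi1 -3.69 and Bcl11b -2.91, and all 3 passed. Of the E proteins, which bind E-box words such as those in the Rag1 promoter shown above, Tcf12 and Tcf3 had -1.83 and -1.26 while Tcf4 rose (1.1, limma adjusted p = 0.00085). Of the RUNX factors, which bind RUNX words, Runx1 had -0.81 and its partner Cbfb -1.12 while Runx3 had 0.60. Ikzf1, which encodes Ikaros, had -1.68, and Ets1 and Gata3 had -1.77 and -1.65. The 7 values below 0 among these E protein, RUNX, Ikaros, Ets1 and Gata3 genes had a limma adjusted p of at most 0.00159. Among these regulators Satb1 in the control thymus was above each member's level, and its 6.58% of control after irradiation was above that of Rag1, Rag2 and Dntt.

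The 6 factors that rose were Spi1 (2.92), Ebf1 (2.80), Bcl11a (2.50), Tcf4 (1.1), Foxo1 (0.76) and Runx3 (0.60). Spi1 encodes PU.1 of myeloid and early lymphoid cells, Ebf1 is an early B cell factor also found in stroma, and FOXO1 is known to act on the Rag genes in lymphocytes. The macrophage and fibroblast markers given above rose in the same libraries, and their part in these values was not tested. Runx3 (limma adjusted p = 0.0382) did not pass when any 1 of the 3 controls, irradiated replicate 2 or irradiated replicate 3 was left out, nor after quantile normalization (0.23, adjusted p = 0.363) or median-ratio scaling (0.14, adjusted p = 0.534). Foxo1 did not pass after median-ratio scaling (0.29, adjusted p = 0.129).

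**Figure D4:**
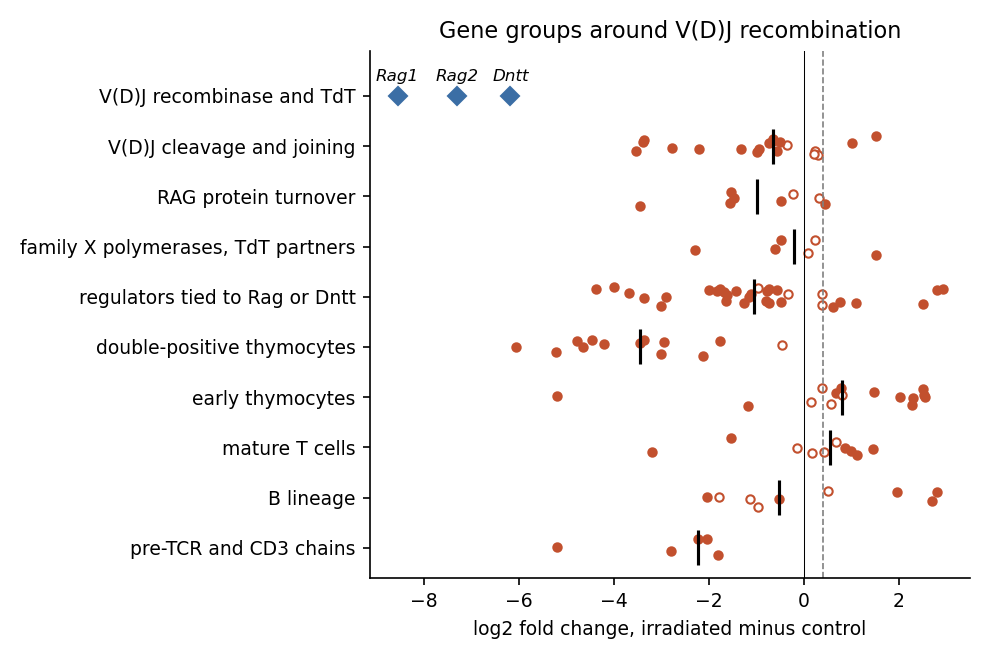
Log2 fold change, irradiated minus control, of the tested genes of each list (filled circles passed the limma test, open circles did not), with list medians as black ticks, the median of all genes (0.40) as a dashed line and the 3 members as blue diamonds. Rag1, Rag2 and Dntt lie below every list gene, while lists of early and mature T cells have medians of 0.79 and 0.55.

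Genes of other stages and lineages that use the recombinase were read the same way, beside 42.4% higher and 20.9% lower over all genes tested. Of 15 early thymocyte genes 9 rose and 2 fell, with 4 rising after quantile normalization and 1 falling when any 1 control was left out. Ptcra (-5.20) and Mycn (-1.18) were the genes that fell, while Kit, Dtx1, Hes1, Cd44, Lyl1, Hhex, Bcl11a, Erg and Lmo2 rose. The part of macrophages and stroma, whose markers rose in the same libraries, was not tested. Of 10 genes of mature T cells 4 rose and 2 fell, near those shares, with 2 rising without control replicate 1 or after median-ratio scaling. Of 9 tested B lineage genes 3 rose and 2 fell, also near those shares. Those that fell were Cd79b (-0.53, limma adjusted p = 0.0342) and the surrogate light chain gene Vpreb1 (-2.03, limma adjusted p = 0.0385), and neither passed when any 1 control was left out, nor Cd79b without irradiated replicate 3 and Vpreb1 without irradiated replicate 2. Those that rose were Ebf1, Blnk and Vpreb3 (2.7, limma adjusted p = 0.0277, but 0.0924, 0.0698 and 0.0516 without control replicate 2, control replicate 3 and irradiated replicate 2). Vpreb3 had 1.35 (limma adjusted p = 0.244) after quantile normalization and 1.1 (limma adjusted p = 0.0729) with a pseudocount of 1. Igll1 and Vpreb2, markers of B cell precursors, lay under the abundance filter with means of at most 0.207 FPKM in either group.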

How the data were processed

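The 6 thymus libraries, 3 control and 3 irradiated, were grouped by their labels. The authors deposited FPKM values per library, 1 per gene in an mRNA table and 1 per transcript in a lncRNA table, with the authors' log2 fold changes and p-values. The submitters' processing notes name DESeq2 1.10.1. Aligner, counting tool, strand use and build were not given in the sources used here, but 10 of 10 transcripts checked have the GENCODE M21 coordinates of GRCm38. The mRNA table repeats each gene's values on its transcript lines, and 62 broken lncRNA lines were dropped. Log2(FPKM + 0.1) was tested with limma 3.58.1 in R 4.3.3 (group-only model, abundance trend), for genes averaging at least 0.5 FPKM and transcripts averaging at least 0.1 FPKM, each table alone, with Benjamini-Hochberg adjustment and a threshold of 0.05. This scale understates the fall of genes near 0. Depth came from the commonest smallest step of FPKM times length, where 1 fragment in 1 kb is worth 0.0391 to 0.0456 FPKM. Ratios used exact permutation tests. The fit was tested on simulated data. Named genes are the members, genes of the lists, the 6 most like each member and neighbours with a start within 100 kb. The members and lists were chosen with earlier results of these data known. Replicate numbers do not pair the samples by the labels.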

Additional observations from a re-analysis of the deposited data

How the results depend on the processing

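Rag1, Rag2, Dntt and Dntt-203 kept their direction and their call in all 15 alternatives, with log2 fold changes of -9.24 to -7.80, -8.28 to -5.29, -6.88 to -5.49 and -9.60 to -5.05. Same-numbered libraries did not deviate together (r of 0.0596, -0.0433 and 0.0516). This gives no sign of a pairing, but with 3 libraries per group it cannot exclude one. With the replicate block the limma adjusted p was 0.000924 for Rag1, 0.000981 for Rag2 and 0.00126 for Dntt, 59.7% of genes were called against 63.2%, and the ratios had p = 0.25 in the exact permutation test, the smallest it allows. After quantile normalization 3501 genes were higher and 4403 lower against 5933 and 2920, 4917 were lower after median-ratio scaling, and 16 genes of the lists were higher against 26. The Dntt to Rag2 ratio turned to -0.62 with a pseudocount of 1. After median-ratio scaling Polm had -0.24, Trp53bp1 -0.17, Nbn -0.26, Ddb1 -0.15, Cul4a -0.031 and Dnttip1 -0.39. After quantile normalization Polm had -0.28, Nbn -0.16 and Dnttip1 -0.21, and Dnttip1 had -0.017 after scaling to summed FPKM. The cause was not tested beyond the change of scaling itself. Depth limits Dntt-203, with under 1 fragment in irradiated replicates 2 and 3, and Rag2, with about 1.001 fragments in irradiated replicate 2.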

Other observations

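The deposited lncRNA table also names mRNA genes that the authors linked to each noncoding transcript. By co-expression Rag1 is listed beside 839, Rag2 beside 682 and Dntt beside 581 of the 15517 transcripts with such an entry, which is 5.41%, 4.4% and 3.74% in the authors' deposited table. By position Rag1 is listed beside 6, Rag2 beside 6 and Dntt beside 5 transcripts.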
